A study of Mus musculus with 12 samples.

Results

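The 10 genes named here belong to the circadian clock and were followed in mouse glomeruli, the filtering units of the kidney. Their rows were found by symbol, as Arntl, Clock, Npas2, Per1, Per2, Per3, Cry1, Nr1d1, Nr1d2 and Dbp, and all 10 are among the 14096 genes with a deposited value. The question here was whether diabetes, or treatment of diabetic mice with arctigenin (ATG), was accompanied by other levels of the genes that keep and report circadian time.

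Every mouse was a male eNOS−/− animal on the C57BL/6J background, so the gene for endothelial nitric oxide synthase (Nos3) was targeted in the nondiabetic groups as well. Con_DMSO and Con_ATG are the nondiabetic groups, which had been injected with citrate buffer. DM_DMSO and DM_ATG are the diabetic groups, injected at 8 weeks of age with streptozotocin (STZ), a toxin of insulin-producing cells, at 50 mg/kg on 5 consecutive days. Beginning 10 weeks after induction, ATG, a compound of a medicinal herb, was given by daily gavage at 40 mg/kg (Con_ATG, DM_ATG) for 8 weeks, and the other groups received its vehicle with 5% DMSO. Each group had 3 mice, killed 18 weeks after induction. The time of day at which they were killed is not given in the sources used here. This bears on every value below, because the transcripts of most of these genes rise and fall over the day.

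In the clock, the proteins of Arntl (also called Bmal1) and of Clock or its relative Npas2 pair up and bind E-box sequences in the DNA of their targets. Among these targets are the Per and Cry genes, whose proteins return to the nucleus and block the pair, and Nr1d1 and Nr1d2, which encode the repressors REV-ERBα and REV-ERBβ that silence Arntl and Npas2. Dbp, a further target, encodes an activator that binds D-box sequences and passes the rhythm on to output genes. In a rhythmic tissue Arntl and Npas2 therefore peak at about the opposite phase from Dbp, Nr1d1, Nr1d2 and the Per genes, and Cry1 peaks later than the Per genes. The kidney has such a clock, and renal transport of sodium follows it.

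The log2 values are reads per gene scaled by library and not by gene length. Reads on listed genes numbered 23.6 to 29.8 M (mega) per mouse, and the clock genes had from 160 reads (the lowest count of Cry1) to 9375 reads (the highest of Per1) in a library, so that none was near the limit of detection. Counting alone gives an SD of 0.11 on the log2 scale at the lowest count of Cry1 and of at most 0.10 for the other 9 genes. Nos3 was still read in all 12 libraries (846 to 2703 reads), which does not check the genotype, since the deleted part of the gene cannot be seen in a sum over the gene. The 10 podocyte markers, among them Nphs1 and Podxl, had a mean log2 value of 13.44 to 15.21 per mouse. The 19 proximal tubule markers described below had 10.41 to 14.05, and in Con_ATG their range (13.37 to 14.05) overlapped that of the podocyte markers (13.44 to 14.67), so the libraries also held tubule RNA. The labels also describe digestion to single cells and a sort by a fluorescent protein, which the study's methods do not mention, so whether whole glomeruli or sorted cells were sequenced is not settled here. The leading number of the mouse labels differs between groups, and 1 mouse in each nondiabetic group has a label of another form with no number of its own (called mouse 3 of Con_DMSO and of Con_ATG below), so a processing batch and the group cannot be told apart.

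The control regions of 3 clock genes are shown because they carry the sequences through which the loop is known to work and because the same genes return in the results. Each run is the 250 bases just before the RefSeq start of the gene, read 5′ to 3′ on the strand of the gene (RefSeq, build GRCm38.p6). Capitals mark the E-box CACGTG in Per1, the same E-box and, in front of it, its variant AACGTG in Cry1, and the D-box TTATGTAA in Per3.
Cry1, chr10:85185055-85185304, minus strand: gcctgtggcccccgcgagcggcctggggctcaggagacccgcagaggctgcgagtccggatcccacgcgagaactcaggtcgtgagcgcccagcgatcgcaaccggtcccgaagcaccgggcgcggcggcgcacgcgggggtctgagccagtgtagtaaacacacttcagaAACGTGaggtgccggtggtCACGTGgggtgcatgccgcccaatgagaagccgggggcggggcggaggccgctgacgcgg
Per1, chr11:69098699-69098948, plus strand: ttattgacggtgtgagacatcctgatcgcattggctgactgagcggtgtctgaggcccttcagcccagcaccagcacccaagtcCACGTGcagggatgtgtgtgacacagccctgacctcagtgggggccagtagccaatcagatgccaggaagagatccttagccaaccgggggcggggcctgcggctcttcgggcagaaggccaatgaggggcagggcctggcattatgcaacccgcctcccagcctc
Per3, chr4:151044666-151044915, minus strand: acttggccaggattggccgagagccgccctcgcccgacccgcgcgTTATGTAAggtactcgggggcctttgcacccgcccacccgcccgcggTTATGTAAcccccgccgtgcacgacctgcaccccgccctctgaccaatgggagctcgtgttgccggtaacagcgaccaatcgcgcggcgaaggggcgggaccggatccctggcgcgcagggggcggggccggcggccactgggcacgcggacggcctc

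The Cry1 window held its E-box 60 bases and its variant 79 bases before the start, that of Per1 held an E-box 166 bases before it, and that of Per3 held 2 D-boxes, 205 and 158 bases before it. In 32851 mouse promoter windows of the same length, searched on both strands, 6.02% held CACGTG, 3.85% held the variant and 0.931% held a D-box (TTATGTAA or TTACGTAA). The half-site AGGTCA, the core of sequences bound by the REV-ERB and ROR receptors, stood in the Per1 window (137 bases before the start) and in that of Nr1d2 (77 bases), and in 14.02% of all windows. Nr1d1 had an E-box variant 28 bases before its start. None of these letters occurred in the windows of Arntl, Clock, Npas2 and Dbp, and the window of Per2 is not shown here. No 2 matches within a window overlapped. These matches describe letters in a short window and do not show that a factor binds there. On the files' coordinates, Cry1 lies at chr10:85131700-85185054 (minus strand), Per1 at chr11:69098956-69109957 (plus strand) and Per3 at chr4:151003655-151044665 (minus strand).

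In these glomeruli Cry1 was higher in diabetic than in nondiabetic mice under both treatments. It was the one clock gene whose 6 diabetic values all lay on one side of its 6 nondiabetic values, a separation found for 24.6% of all listed genes. Nr1d1 was lower in diabetic mice among those given vehicle, and Per1 was higher in diabetic mice among those given ATG. The other 7 genes did not pass the test for diabetes under either treatment. None of the 10 genes passed the test for ATG, in diabetic or in nondiabetic mice. Out of the 10 genes, 2 were called for diabetes under vehicle (limma, adjusted p under 0.05 over all 14096 genes, two-sided) against 18.9% of all genes, 2 under ATG against 46.7%, and 1 in the average over both treatments against 51.5%. The share of clock genes called was thus near that of all genes under vehicle, and below it under ATG and in the average. The median log2 difference of the 10 genes was -0.14 under vehicle and 0.08 under ATG, beside 0.01 and 0.05 over all genes.

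**Figure D1:**
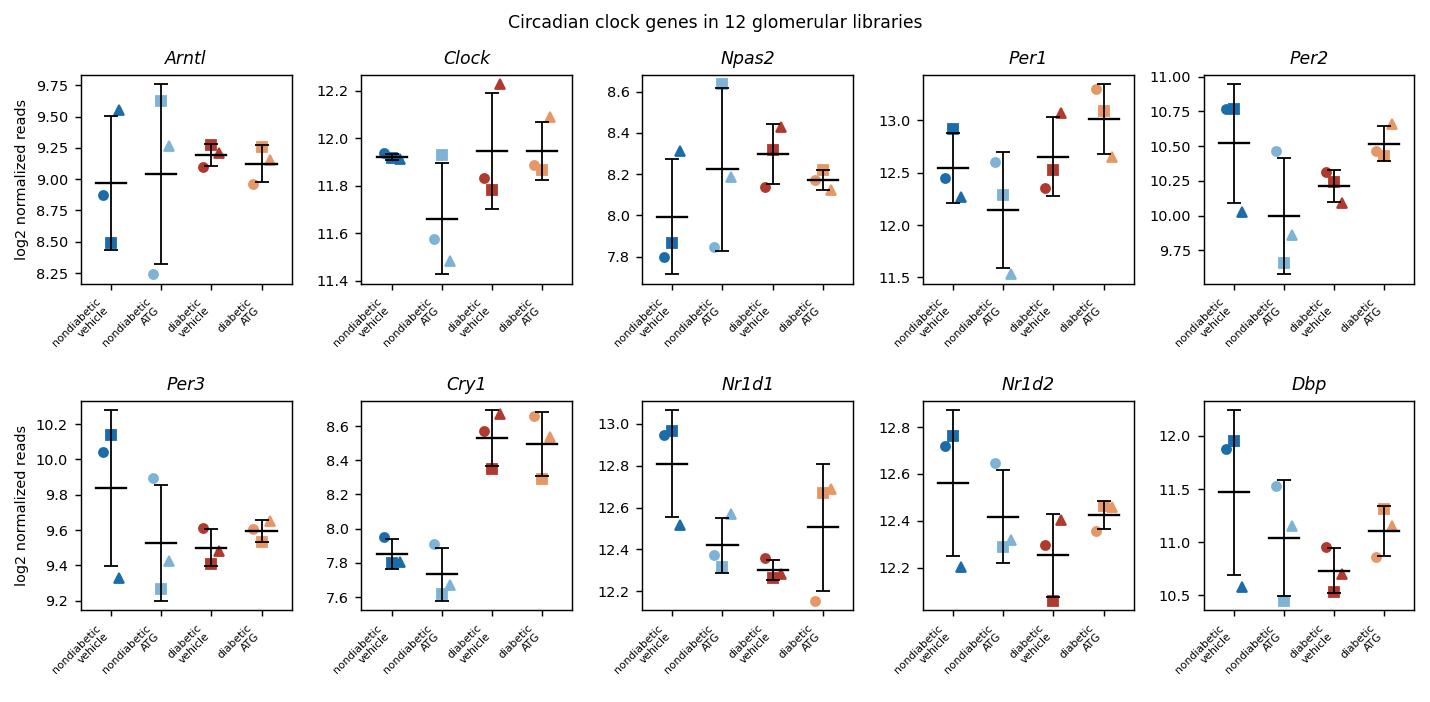
Log2 normalized reads (y axis, own scale per gene) of the 10 clock genes in each mouse, by group (x axis); circles, squares and triangles are mice 1, 2 and 3, the bar is the group mean and the error bar 1 SD (n = 3). Cry1 separates diabetic from nondiabetic mice, whereas Arntl, Dbp, Per2 and Per3 spread widely within the nondiabetic groups.

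Cry1 encodes cryptochrome 1, the repressor that holds the Arntl and Clock proteins inactive latest in the cycle. Its log2 values were 7.95, 7.80 and 7.81 in Con_DMSO and 7.91, 7.62 and 7.67 in Con_ATG. They were 8.57, 8.35 and 8.67 in DM_DMSO and 8.66, 8.29 and 8.54 in DM_ATG. The lowest diabetic mouse (8.29) was above the highest nondiabetic mouse (7.95). The log2 difference was 0.68 (SE 0.13, 95% interval 0.40 to 0.96, adjusted p = 0.0078) under vehicle, a 1.60-fold higher level. Under ATG it was 0.76 (SE 0.13, 95% interval 0.48 to 1.04, adjusted p = 0.0011), or 1.70-fold. Averaged over both treatments it was 0.72 (SE 0.09, adjusted p = 0.00015), and it stayed between 0.68 and 0.77 and past the threshold when each mouse was left out in turn. Between ATG- and vehicle-treated diabetic mice the log2 difference of Cry1 was -0.03 (95% interval -0.31 to 0.24, adjusted p = 1.00).

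Markers of some other kidney cells moved with diabetes too. All 19 proximal tubule markers, which include Slc34a1 and Lrp2, were lower in diabetic mice in the average over treatments, and their mean log2 value per mouse was 12.27 to 14.05 in nondiabetic and 10.41 to 12.04 in diabetic mice, with no overlap. Their summed level was 157 to 271 k (kilo) normalized reads in Con_DMSO, 307 to 535 in Con_ATG, 38.8 to 88.6 in DM_DMSO and 55.7 to 112 in DM_ATG. Of 15 markers of the distal nephron 12 were lower, and all 10 endothelial, 4 of 10 podocyte, 3 of 10 mesangial or smooth muscle, 6 of 13 leukocyte and all 5 erythrocyte markers were higher. In this average over treatments 51.5% of all genes were called in either direction. The podocyte, mesangial and leukocyte shares were below that. With the tubule mean as a covariate, the log2 difference of Cry1 was 0.56 under vehicle (adjusted p = 0.23), 0.61 under ATG (adjusted p = 0.27) and 0.59 on average (SE 0.23, adjusted p = 0.21), no clock gene was called, and 18 of all listed genes were called on average. In that fit Nr1d1 had a log2 difference of -0.69 under vehicle (SE 0.27, adjusted p = 0.22), and Per1 one of 0.67 under ATG (SE 0.60, adjusted p = 0.61). The tubule level and diabetes could not be told apart in these mice. In bulk RNA, fewer cells of a type and less RNA per cell cannot be told apart either.

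With all 12 mice, the partners of the activating pair did not pass the test in any comparison. Arntl had log2 values of 8.87, 8.49 and 9.55 in Con_DMSO and 8.24, 9.62 and 9.26 in Con_ATG. In the diabetic mice it was 9.10, 9.27 and 9.21 (DM_DMSO) and 8.96, 9.25 and 9.16 (DM_ATG). All diabetic values of Arntl fell inside the nondiabetic range, which spanned both the lowest and the highest of the 12 mice. Diabetes went with a log2 difference of 0.22 (95% interval -0.49 to 0.93, adjusted p = 0.66) under vehicle and 0.08 (adjusted p = 0.85) under ATG.

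Clock encodes the partner of the Arntl protein, and its transcript is known to vary little over the day. Its values were 11.94, 11.92 and 11.91 in Con_DMSO, 11.57, 11.93 and 11.48 in Con_ATG, 11.83, 11.78 and 12.23 in DM_DMSO and 11.89, 11.87 and 12.09 in DM_ATG. The groups overlapped, with log2 differences for diabetes of 0.03 (adjusted p = 0.91) under vehicle and 0.29 (95% interval -0.01 to 0.58, adjusted p = 0.10) under ATG. Without mouse 2 of Con_ATG, Clock passed under ATG (0.42, adjusted p = 0.016) and on average (0.22, adjusted p = 0.041). Without mouse 3 of DM_DMSO it passed under ATG (0.29, adjusted p = 0.046). Npas2, which can stand in for Clock, had 7.80, 7.86 and 8.31 in Con_DMSO, 7.85, 8.64 and 8.19 in Con_ATG, 8.14, 8.32 and 8.43 in DM_DMSO and 8.17, 8.22 and 8.12 in DM_ATG. As for Arntl, the diabetic mice lay within the nondiabetic range, and the log2 difference was 0.30 (adjusted p = 0.28) under vehicle and -0.05 (adjusted p = 0.84) under ATG.

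The period genes encode the repressors that work together with the cryptochromes. Per1, the member that responds within an hour to hormones and other stimuli, had log2 values of 12.45, 12.92 and 12.27 in Con_DMSO and 12.61, 12.28 and 11.53 in Con_ATG. Its values were 12.35, 12.53 and 13.07 in DM_DMSO and 13.30, 13.09 and 12.65 in DM_ATG. The DM_ATG mice were all above the Con_ATG mice, while the vehicle groups overlapped. Per1 was 1.83-fold higher in diabetic mice under ATG (log2 difference 0.87, SE 0.29, 95% interval 0.24 to 1.51, adjusted p = 0.029), against 0.10 (adjusted p = 0.83) under vehicle. The difference between these effects was 0.77 (adjusted p = 0.45), so it was not shown that they differ. The call under ATG was lost without mouse 3 of Con_ATG, mouse 1 of DM_ATG or mouse 2 of DM_ATG, with a log2 difference of 0.57 to 1.11 over all single omissions. It was also lost under the replicate block described below (log2 difference 0.64, adjusted p = 0.12). In diabetic mice under ATG 7 of 10 mesangial or smooth muscle markers and all 10 endothelial markers were higher, beside 46.7% of all genes called. Under vehicle 1 and 5 were higher, beside 18.9%. The part of these markers in the Per1 result was not tested.

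Per2 gave 10.77, 10.77 and 10.02 in Con_DMSO and 10.46, 9.66 and 9.86 in Con_ATG. In diabetic mice it gave 10.32, 10.24 and 10.09 (DM_DMSO) and 10.46, 10.43 and 10.66 (DM_ATG). Mouse 3 of Con_DMSO was below every diabetic mouse, whereas the other 2 of that group were above them all. The log2 difference for diabetes was -0.30 (adjusted p = 0.35, and -0.55 to -0.18 when 1 mouse was left out) under vehicle and 0.52 (95% interval 0.03 to 1.01, adjusted p = 0.074) under ATG, neither past the threshold. Under ATG, Per2 passed without mouse 3 of Con_DMSO (0.52, adjusted p = 0.034) or mouse 1 of Con_ATG (0.76, adjusted p = 0.018). For Per3, whose product is dispensable for the core rhythm, the values were 10.04, 10.14 and 9.33 in Con_DMSO, 9.90, 9.26 and 9.42 in Con_ATG, 9.61, 9.41 and 9.48 in DM_DMSO and 9.61, 9.53 and 9.65 in DM_ATG. Its diabetic mice spanned 9.41 to 9.65 within a nondiabetic range of 9.26 to 10.14, and the log2 differences were -0.34 (adjusted p = 0.26) under vehicle and 0.07 (adjusted p = 0.80) under ATG.

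Nr1d1 and Nr1d2 encode the nuclear receptors that repress Arntl. The log2 values of Nr1d1 were 12.95, 12.97 and 12.52 in Con_DMSO and 12.37, 12.32 and 12.57 in Con_ATG. They were 12.36, 12.26 and 12.28 in DM_DMSO and 12.15, 12.67 and 12.69 in DM_ATG. Under vehicle every diabetic mouse was below every nondiabetic mouse, and under ATG the groups overlapped. Nr1d1 was lower in diabetic mice under vehicle, with a log2 difference of -0.51 (SE 0.15, 95% interval -0.85 to -0.17, adjusted p = 0.042), at 0.70 times the nondiabetic level. Under ATG the difference was 0.09 (adjusted p = 0.67), and the difference between these effects of 0.59 did not pass (adjusted p = 0.29). The call under vehicle held in 5 of the 12 fits that left out 1 mouse (log2 difference -0.66 to -0.43, adjusted p from 0.023 to 0.14). It was lost without mouse 1 or 2 of Con_DMSO, without any 1 mouse of DM_DMSO, without mouse 1 of Con_ATG and without mouse 2 of DM_ATG. The call was also lost in limma without a mean-variance trend (adjusted p = 0.051) and under the replicate block described below (-0.59, adjusted p = 0.081). Exons of Thra on the opposite strand cover 263 of the 2721 exonic bases of Nr1d1 (GENCODE M21), and it is not stated whether counting used the strand.

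Nr1d2 had values of 12.72, 12.76 and 12.20 in Con_DMSO, 12.64, 12.29 and 12.32 in Con_ATG, 12.30, 12.06 and 12.41 in DM_DMSO and 12.36, 12.46 and 12.46 in DM_ATG. The groups overlapped, with mouse 3 of Con_DMSO again apart from its group. The log2 difference for diabetes was -0.31 (95% interval -0.64 to 0.03, adjusted p = 0.17) under vehicle and 0.01 (adjusted p = 0.97) under ATG.

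Dbp, the output activator, ranged most widely in the nondiabetic groups. Its log2 values were 11.87, 11.95 and 10.58 in Con_DMSO and 11.53, 10.45 and 11.15 in Con_ATG, and they were 10.96, 10.54 and 10.70 in DM_DMSO and 10.86, 11.31 and 11.15 in DM_ATG. Mice 1 and 2 of Con_DMSO exceeded all diabetic mice and mouse 3 of that group did not. Diabetes went with a log2 difference of -0.74 (SE 0.35, 95% interval -1.51 to 0.04, adjusted p = 0.16) under vehicle and 0.06 (adjusted p = 0.89) under ATG, and with -0.34 (adjusted p = 0.28) on average. Without mouse 3 of Con_DMSO, the difference under vehicle was -1.18 (adjusted p = 0.029), and 5 clock genes were called under vehicle in place of 2: Cry1 (0.66) was higher, and Dbp, Nr1d1 (-0.66), Nr1d2 (-0.49) and Per3 (-0.59) were lower. Over all 14096 genes, 1262 were called in that fit in place of 2659. The label of this mouse carries no number. Leaving out any 1 of the 7 mice named for Nr1d1 gave 1 clock gene, so the count under vehicle rests on single mice. Sphk2, on the opposite strand, shares 539 of the 1837 exonic bases of Dbp.

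**Figure D2:**
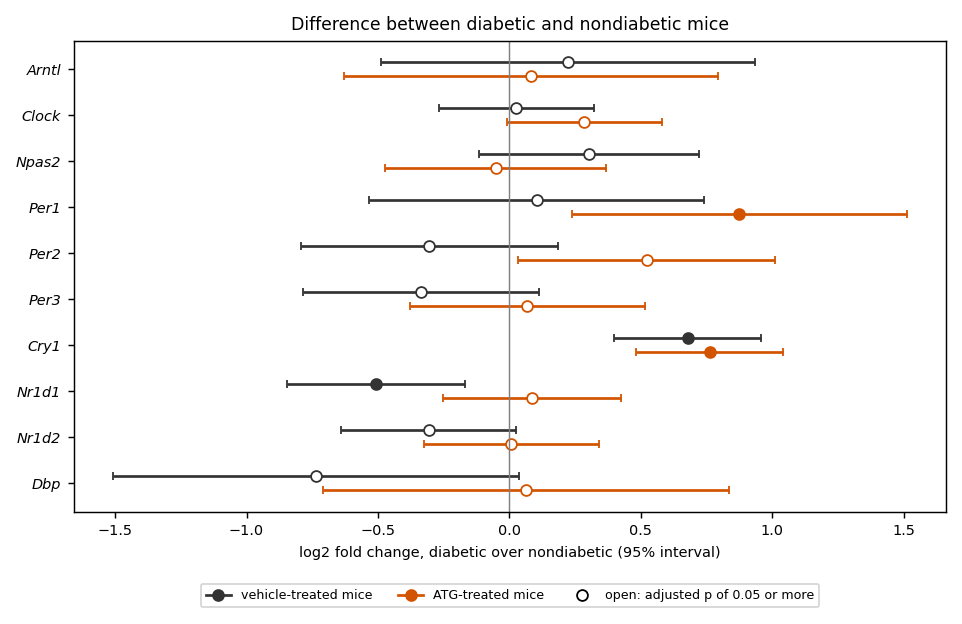
Log2 fold change of each clock gene, diabetic over nondiabetic (x axis), with its 95% interval from limma, in vehicle-treated (dark) and ATG-treated mice (orange); filled points have an adjusted p under 0.05. Only Cry1 is filled under both treatments; the intervals of Arntl, Dbp and Per1 are the widest.

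ATG was compared with vehicle in diabetic and in nondiabetic mice. In diabetic mice no clock gene passed the test, and neither did any of the listed genes (0% called by limma or by limma-voom on recovered reads, 636 at an unadjusted p under 0.05 in limma). The log2 differences of the 10 genes ran from -0.13 (Npas2) to 0.37 (Dbp, 95% interval -0.40 to 1.14), and Per1 differed by 0.36 (95% interval -0.28 to 1.00). For Per2 the 3 DM_ATG mice (10.43 to 10.66) all exceeded the 3 DM_DMSO mice (10.09 to 10.32), with a log2 difference of 0.30 (95% interval -0.19 to 0.79, adjusted p = 1.00). The share of all genes with such a separation of 3 from 3 mice was not counted, here or for Per1 and Nr1d1 above. In nondiabetic mice none of the 10 genes passed either, against 5.22% of all genes. The lowest adjusted p values there were those of Nr1d1 (log2 difference -0.39, adjusted p = 0.13) and Per2 (-0.52, adjusted p = 0.15). These were the 2 of the 10 genes with an unadjusted p under 0.05, beside 4263 of all 14096 genes. In that comparison 6 of 10 endothelial and 7 of 10 mesangial or smooth muscle markers were lower, and their part in these results was not tested. A test of whether the ATG effect differed between diabetic and nondiabetic mice called no clock gene, and 0.546% of all genes; the log2 difference of the effects was 0.83 for Per2 (adjusted p = 0.31) and 0.80 for Dbp (adjusted p = 0.50). Leaving out 1 mouse gave 0.50 (without mouse 2 of Con_ATG) to 1.24 (without mouse 3 of Con_DMSO) for Dbp. For Dbp, Per1 and Per2, the intervals in diabetic mice reached past the 0.72 found for Cry1 with diabetes.

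Within groups, most clock genes of nondiabetic mice varied more than the median gene, and Cry1 did not. The SD between mice of a group, pooled over both nondiabetic groups, was 0.67 for Dbp and 0.63 for Arntl on the log2 scale, above 99.5% of all genes in each case, next to a median of 0.15 over all genes. Per1 (0.46), Per2 (0.42), Per3 (0.39) and Npas2 (0.34) exceeded 88.5% to 96.8% of genes, and Nr1d2 had 0.26 and Nr1d1 0.20. Clock (0.17) and Cry1 (0.13) were near the median. In the diabetic groups the SD was 0.12 for Arntl, 0.12 for Per2, 0.09 for Per3, 0.11 for Npas2, 0.13 for Nr1d2 and 0.22 for Dbp, around a median of 0.14. Per1 (0.35) exceeded 90.0% of genes there, and Nr1d1 had 0.22, Clock 0.19 and Cry1 0.17. The nondiabetic SD was 5.22 times the diabetic SD for Arntl, 4.55 times for Per3, 3.50 times for Per2, 3.15 times for Npas2, 3.01 times for Dbp and 1.97 times for Nr1d2, with a median ratio of 1.00 over all genes. Per1 (1.29 times), Nr1d1 (0.93 times), Clock (0.86 times) and Cry1 (0.72 times) had ratios nearer to 1. With 6 mice on each side and 1 mouse of each nondiabetic group labelled in another way, these ratios are a description with no test.

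**Figure D3:**
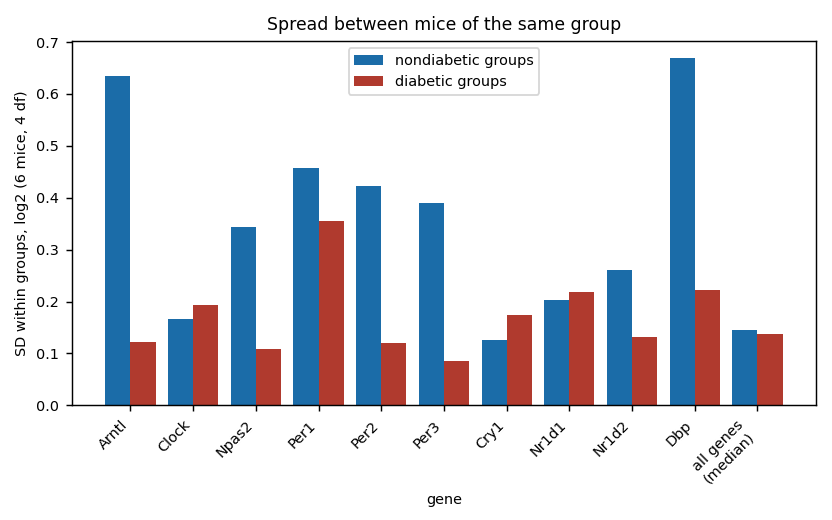
SD of log2 values between mice of the same group (y axis) for each clock gene and for the median gene (x axis), pooled over the 2 nondiabetic groups (blue) and the 2 diabetic groups (red). Arntl, Dbp, Per2, Per3 and Npas2 have bars of 0.34 to 0.67 in nondiabetic mice and of 0.09 to 0.22 in diabetic mice.

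Among nondiabetic mice, those with high Arntl had low Dbp. The DM_DMSO mice had the same order, but in DM_ATG Arntl and Dbp rose together. There mouse 2 had the highest Arntl (9.25) and Dbp (11.31), and mouse 1 the lowest (8.96 and 10.86). The log2 value of Dbp minus that of Arntl, a within-mouse difference in which library scaling cancels, was 3.00, 3.46 and 1.03 in Con_DMSO and 3.29, 0.83 and 1.89 in Con_ATG. In diabetic mice it was 1.86, 1.26 and 1.50 (DM_DMSO) and 1.90, 2.06 and 1.99 (DM_ATG). The 3 highest and the 2 lowest of the 12 values thus belonged to nondiabetic mice, and each nondiabetic group held mice from both ends.

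The order of the mice was shared by part of the loop. Over the 12 mice and all 14095 other genes, the gene most like Arntl was Npas2 (Pearson's r = 0.85), followed by Hps1 (0.82), Tmem17 (0.81), Cdk20 (0.81) and R3hcc1 (0.80). The genes most opposed to Arntl were Per3 (-0.87), Tef (-0.81), Stk35 (-0.77), Kdm3a (-0.77) and Dbp (-0.77), so that 3 of these 5 were clock genes or their close relatives. The genes most like Dbp were Tef (0.93), which encodes another D-box activator, Per3 (0.92), Bhlhe41 (0.92), a repressor of E-box genes, Nr1d2 (0.91) and Firre (0.86). Npas2 (-0.90) was the gene most opposed to Dbp, ahead of Ndnl2 (-0.87), Tmem222 (-0.87), Fer1l4 (-0.85) and Cpvl (-0.82). When group means were subtracted first, Per3 (-0.93), Ciart (-0.93), Per2 (-0.91), Alkbh1 (-0.89) and Tef (-0.87) were most opposed to Arntl, and Tef, Bhlhe41, Per3 and Nr1d2 were again among the 5 genes most like Dbp. Npas2 then ranked 9 among the genes most like Arntl (0.89) and 6 among those most opposed to Dbp (-0.88), and 0 clock genes were in the first 5 of either order. Cry1 (0.01), Clock (0.26), Nr1d1 (-0.29) and Per1 (-0.30) had weak correlations with Arntl over the 12 mice. With Dbp, Cry1 had -0.23, Clock -0.18 and Per1 0.12, whereas Nr1d1 had 0.79. With group means subtracted, the correlation with Arntl was -0.54 for Cry1, -0.52 for Per1, 0.28 for Clock and -0.23 for Nr1d1, and that with Dbp was 0.27 for Cry1, 0.21 for Per1, -0.29 for Clock and 0.71 for Nr1d1. These values describe 12 libraries, whose genes share depth and scaling. Arntl spanned 8.24 to 9.62 in nondiabetic and 8.96 to 9.27 in diabetic mice. No correlation was taken within the diabetic mice alone.

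**Figure D4:**
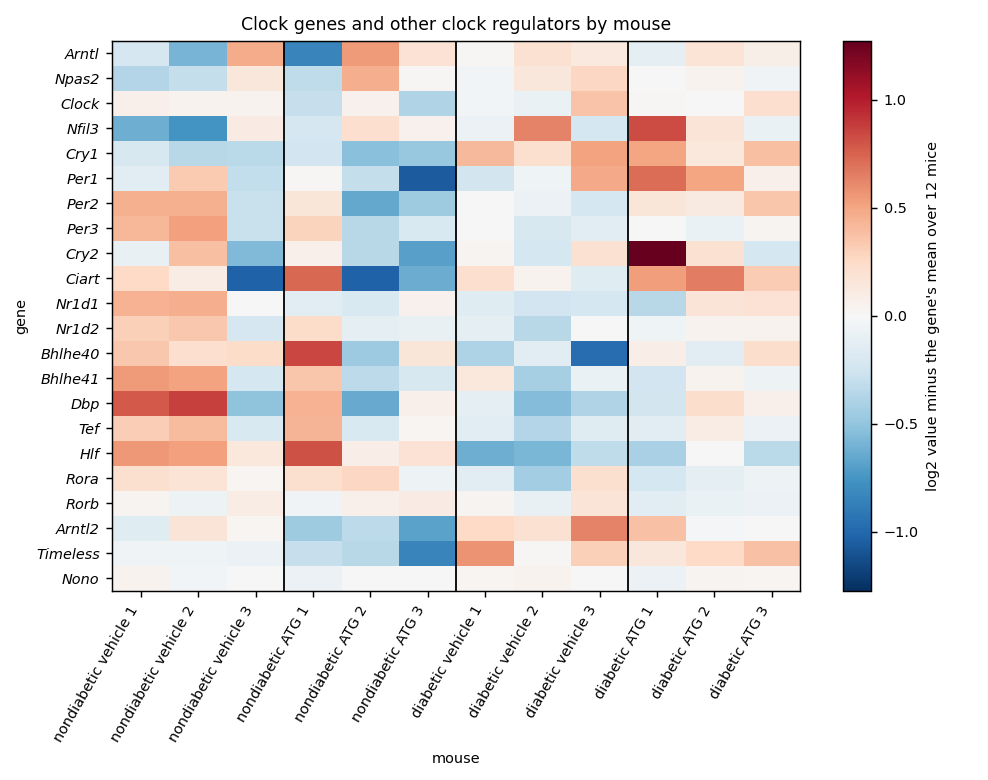
Log2 value minus the mean of the gene over the 12 mice (colour, red higher) for the 10 clock genes and 12 other clock regulators (rows) in each mouse (columns, black lines between groups). Mice 1 and 2 of nondiabetic vehicle and mouse 1 of nondiabetic ATG are low for Arntl and Npas2 and high for Dbp, Tef, Per3 and Nr1d2; mouse 3 of nondiabetic vehicle and mouse 2 of nondiabetic ATG show the reverse for Arntl, Npas2, Dbp and Per3, and the diabetic mice lie within the nondiabetic range for these 4 genes.

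Per kilobase of transcript, which allows levels to be set between genes, Nr1d1, Per1, Dbp and Nr1d2 had the highest levels. The mean log2 level per kilobase over 12 mice was 11.04 ± 0.27 (SD) for Nr1d1, 10.37 ± 0.48 for Per1, 10.34 ± 0.51 for Dbp and 10.20 ± 0.21 for Nr1d2. From each of these 4 genes to the next, the step was within the sum of their SDs. Clock followed at 8.58 ± 0.20, then Per2 (7.77 ± 0.35), Arntl (7.54 ± 0.40), Per3 (7.03 ± 0.28), Cry1 (6.56 ± 0.40) and Npas2 (6.11 ± 0.25), and only the steps from Nr1d2 to Clock and from Clock to Per2 exceeded the sum of both SDs. The transcripts used ranged from 1678 bases (Dbp) to 9744 bases (Clock).

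Of 12 other regulators of the clock, 4 passed the test for diabetes averaged over both treatments, in which 51.5% of all genes passed. Hlf, the third D-box activator beside Dbp and Tef, was lower, with a log2 difference of -0.76 (SE 0.14, adjusted p = 0.0011), and its 6 diabetic values (9.12 to 9.74) lay below its 6 nondiabetic values (9.82 to 10.54). Rora, an activator of Arntl, was lower by -0.27 (adjusted p = 0.044). Timeless, which in mammals works mainly at replication forks, was higher by 0.55 (adjusted p = 0.0023), and Arntl2, a paralog of Arntl, by 0.48 (adjusted p = 0.0094). Tef, Cry2, Ciart, Nfil3, Bhlhe40, Bhlhe41, Rorb and Nono did not pass. Cry2, the second cryptochrome, gave 10.64, 11.12 and 10.17 in Con_DMSO, 10.80, 10.38 and 10.05 in Con_ATG, 10.77, 10.51 and 10.93 in DM_DMSO and 12.01, 10.93 and 10.51 in DM_ATG, where mouse 1 of DM_ATG stood highest and the groups overlapped. With Cry1, the cryptochromes therefore included 1 gene that separated diabetic from nondiabetic mice and 1 that did not.

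Among 13 listed genes for the modification and turnover of clock proteins, 2 were higher and 3 lower in diabetic mice on average, again beside 51.5% of all genes. The casein kinase genes Csnk1e (log2 difference 0.39, adjusted p = 0.00043) and Csnk1d (0.12, adjusted p = 0.016), whose products phosphorylate the period proteins, were higher. Prkaa2, a catalytic subunit of AMPK, which phosphorylates cryptochrome 1, was lower (-0.70, adjusted p = 0.00058), as were Nampt (-0.35, adjusted p = 0.0011), an enzyme of NAD synthesis, and the deubiquitinase gene Usp2 (-0.81, adjusted p = 0.0050). Of 10 output genes, 2 were higher and 5 lower. Noct (nocturnin), a strongly rhythmic gene, was higher by 0.89 (adjusted p = 0.00016) and Tspan4 by 0.53 (adjusted p = 0.00095). The tubular sodium transport genes Slc9a3 (-1.11, adjusted p = 0.0011) and Scnn1a (-1.07, adjusted p = 0.0030) and the oxidoreductase gene Por (-0.55, adjusted p = 0.0013) were lower, together with 2 more. Slc9a3 belongs to the tubule, whose markers were lower in the same mice as given above, and with the tubule mean as a covariate its log2 difference was -0.25 (adjusted p = 0.79), that of Scnn1a -0.30 (adjusted p = 0.81), that of Por 0.0059 (adjusted p = 0.99), that of Usp2 -0.0027 (adjusted p = 1.00) and that of Hlf -0.64 (adjusted p = 0.35). None of the regulator, turnover and output genes named as higher or lower passed in that fit, whose standard errors were larger. The log2 differences there of Noct (0.85), Timeless (0.52) and Csnk1e (0.36) were near those without the covariate, and those of Rora (-0.67) and Nampt (-0.44) were farther from 0. Those of Tspan4 (0.36), Prkaa2 (-0.29), Arntl2 (0.14) and Csnk1d (0.07) were nearer to 0.

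Per1 and Per2 also answer to signals from outside the clock, so 3 lists of such responses were measured. Of 12 genes induced by glucocorticoids, 3 were higher and 2 lower in diabetic mice on average. Sgk1 (log2 difference 0.98, adjusted p = 0.00015), Tsc22d3 (0.88, adjusted p = 0.0020) and Ddit4 (0.63, adjusted p = 0.0035) were higher, and Errfi1 (-1.09, adjusted p = 0.00033) and Pdk4 (-1.68, adjusted p = 0.00039) lower. With the tubule covariate none of these 5 passed. The log2 difference was then nearer to 0 for Errfi1 (-0.09, adjusted p = 0.87), Pdk4 (-0.99, adjusted p = 0.41) and Tsc22d3 (0.78, adjusted p = 0.39), and farther from 0 for Sgk1 (1.297, adjusted p = 0.087) and Ddit4 (1.08, adjusted p = 0.14). Among 12 immediate-early genes, which rise within minutes of a stimulus, Egr1 alone passed (-1.10, adjusted p = 0.047), and with the tubule covariate its difference was 1.07 (adjusted p = 0.49). Leaving out 1 mouse, without the covariate, gave -1.31 to -0.70 for Egr1. The mean log2 value of the 12 immediate-early genes was 11.85, 11.91 and 12.52 in Con_DMSO, 12.37, 11.15 and 10.22 in Con_ATG, 11.31, 11.53 and 10.72 in DM_DMSO and 11.93, 11.66 and 11.44 in DM_ATG. Mouse 3 of Con_ATG was the lowest for these genes and for Per1 (11.53), and their part in the Per1 result was not tested. Of 8 genes that respond to temperature, Rbm3, a cold-induced RNA-binding protein gene, was higher by 1.09 (adjusted p = 5.3e-05), and the other 7 did not pass. With the tubule covariate Rbm3 did not pass either (1.06, adjusted p = 0.098). For each of these lists the share called can be read against the 51.5% of all genes called in the same comparison.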

How the data were processed

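Total RNA from glomeruli had been sequenced as mRNA after poly-A selection. Values were deposited by the authors on a log2 scale, and the submitters' notes name the build mm10 and limma, while the aligner and counter are not given in the sources used here. The values were checked: below 2000 reads, 83.8% to 84.4% were whole multiples of 1 step per library within 0.02 reads. Samples were grouped by the description in the labels. All 12 mice entered one limma fit (version 3.58.1, R 4.3.3) of the 4 groups with a mean-variance trend, and p-values were adjusted (Benjamini-Hochberg) over 14096 genes. The fit was tested on simulated data. Replicates are separate mice (r of 0.972 to 0.994 within groups).

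The members and gene lists were chosen with earlier results of these data known, and the lists give no independent support. Named are all 10 clock genes, up to 5 called genes with the lowest p of each other list except cell type markers, and the 5 genes most and least correlated with Arntl and with Dbp. Cry2, among regulators that did not pass, was named after its values were seen. One further regulator is not reported here. Levels per kilobase used the deposited transcript lengths. Promoter windows came from RefSeq (9 of 10 genes had a start within 10 bases). Figures were drawn with matplotlib 3.10.9.

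Alternatives were a median-ratio scaling, no trend, limma-voom on recovered reads, a minimum of 100 in every mouse, only the groups compared, a replicate block, the proximal tubule mean as a covariate, both unnumbered mice left out and each mouse left out.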

Additional observations from a re-analysis of the deposited data

How the results depend on the processing

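Of 54 fold changes, 403 values under other settings were recomputed, of which 344 kept direction and side of the threshold, 39 lost the threshold, 3 gained it and 17 changed sign. The cause of the changes was not tested. Clock genes called for diabetes under vehicle numbered 1 without a trend (2461 of all genes), and 5 without both unnumbered mice (1836); leaving out 1 mouse gave 1 to 5 (801 to 3357 of all genes, with 801, 1587 and 1262 without mouse 1, 2 or 3 of Con_DMSO and 1003 without mouse 1 of DM_DMSO). Under ATG, 1 clock gene and 4314 genes were called without both unnumbered mice, and 1 to 3 clock genes (4766 to 7451 of all genes) without 1 mouse. On average, 2 were called without the unnumbered mice (5771 of all genes), and 1 to 4 without 1 mouse, most without mouse 3 of Con_DMSO (6326 to 7967 of all genes). With the tubule covariate 0 clock genes were called for diabetes, and 6, 46 and 18 of all genes under vehicle, under ATG and on average. For ATG in nondiabetic mice, 0 genes were called in the 2 groups alone (3968 at an unadjusted p under 0.05), 52 with the tubule covariate, 8 without the unnumbered mice, and 60 to 3531 without 1 mouse (0 to 1 clock genes), fewest without mouse 2 of Con_DMSO and most without mouse 2 of Con_ATG, where Clock (-0.39) was called. For the difference between ATG effects, 19 genes were called without a trend, 27 with the covariate, 6 without the unnumbered mice and 6 to 770 without 1 mouse, most without mouse 2 of Con_ATG.

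Same-numbered mice are different animals and share only a number. Number 3 occurred only in diabetic groups, and mice without a number, a level of their own in the block, only in nondiabetic groups. Under the block the average over treatments therefore rested on mice 1 and 2 of each group. An effect of the shared number and the loss of these mice cannot be told apart there. When the number entered as a replicate block, 1375 genes and 1 clock gene were called under vehicle, 4422 genes and 1 clock gene under ATG, 4816 genes and 2 clock genes (Cry1, Nr1d2) on average and 8 genes for the difference between ATG effects. Under the block, log2 differences changed sign under vehicle for Clock (-0.13) and Per1 (-0.13), and under ATG for Dbp (-0.13), Nr1d2 (-0.15) and Per3 (-0.093).

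With the tubule covariate, the sign changed under vehicle for Clock (-0.37) and Per1 (-0.060), under ATG for Clock (-0.20), Dbp (-0.094), Nr1d1 (-0.14), Nr1d2 (-0.26) and Per3 (-0.073), and on average for Egr1 (1.07) and Por (0.0059). Nr1d2 under ATG was -0.035 with median-ratio scaling and -0.041 without the unnumbered mice, where Per1 under vehicle was -0.033. Of clock gene differences outside those 54, the average over treatments changed sign for Clock (-0.29) and Npas2 (-0.029) with the covariate and for Per2 under the block (-0.053) and without the unnumbered mice (-0.047). Single omissions gave these ranges under vehicle: Arntl -0.018 to 0.51, Clock -0.11 to 0.11 and Per1 -0.11 to 0.29. Under ATG they gave Arntl -0.32 to 0.37, Dbp -0.23 to 0.31, Npas2 -0.24 to 0.15, Nr1d1 -0.0065 to 0.26, Nr1d2 -0.057 to 0.12 and Per3 -0.063 to 0.25, and for ATG in diabetic mice Cry1 -0.12 to 0.067.

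Read counting gives a log2 SD of 0.11 at the lowest count of Cry1 and 0.10 at that of Npas2, next to an SD between mice of 0.13 for Cry1 in nondiabetic and 0.11 for Npas2 in diabetic mice.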
